A study of Mus musculus with 24 samples.

Results

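Slc2a1, Hk2, Hkdc1, Pgk1, Ldha, Pdk1, Bnip3, Egln3, Vegfa and Ankrd37 are 10 genes of glucose use and of the response to low oxygen. They were taken by symbol, as every probe whose RefSeq accession maps to 1 of these genes. This gave 14 probes of 41174 on the array, and 10 genes of 16358 that could be named. The list was chosen with earlier results of these data known. A count of its genes set beside the share of all probes therefore does not test the list. The RNA came from the mouse embryonic stem (ES) cell line R1, infected with lentivirus that carried a short hairpin RNA. On day 13 after infection there were shCdk8-1, shCdk8-2, shMed12-1, shMed12-2 and shNTC cells. On day 8 there were shCdk8-1, shCdk8-2 and shNTC cells. Each of these 8 groups had 3 arrays, 24 in all, and shNTC is the hairpin that the design sets the others against. Every group shares the cell line and the viral infection, and the labels name no oxygen treatment. Replicates are biological per the labels, which leave unsaid whether each was its own culture or infection. The p-values therefore speak of the spread among these arrays, which may in part be technical.

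Cells take up glucose through transporters such as Slc2a1, trap it as glucose 6-phosphate with hexokinases (Hk2, Hkdc1), and break it down through enzymes such as Pgk1 to pyruvate. Ldha turns pyruvate into lactate, while Pdk1 phosphorylates and so slows pyruvate dehydrogenase, the gate into the mitochondrial citric acid cycle. When oxygen is low, hypoxia-inducible factors (HIFs) escape hydroxylation by prolyl hydroxylases such as Egln3 and switch on most of these genes, Egln3 among them. Other targets of theirs are Bnip3, a mitophagy receptor, Vegfa, a secreted angiogenic factor, and Ankrd37, an ankyrin repeat protein. Cdk8 and Med12 encode subunits of the Mediator kinase module, and Mediator itself stands between transcription factors and RNA polymerase II. In a human colorectal cancer cell line, CDK8 has been described as a coactivator of HIF target genes.

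HIFs bind the core ACGTG or GCGTG, and the promoter windows of the genes on which the results turn are shown for that reason. Windows were taken from RefSeq (GRCm38.p6) and run from 250 bases before to 50 bases after the first listed start of a gene. All 10 genes had a window, and 3 of them had a second one that was not used. Each window is printed 5′ to 3′ along the strand of the gene, with every match on either strand in capitals. ACGTG on the opposite strand reads as cacgt, and GCGTG reads as cacgc. The palindrome cacgtg therefore counts as 2 matches that overlap.
Bnip3, chr7:138909457-138909756, minus strand: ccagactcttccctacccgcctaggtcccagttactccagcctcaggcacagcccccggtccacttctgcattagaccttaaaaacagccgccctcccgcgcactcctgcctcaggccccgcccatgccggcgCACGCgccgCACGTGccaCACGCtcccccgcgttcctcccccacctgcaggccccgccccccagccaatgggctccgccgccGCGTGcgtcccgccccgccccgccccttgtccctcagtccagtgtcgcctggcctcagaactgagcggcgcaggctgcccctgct
Ankrd37, chr8:45999801-46000100, minus strand: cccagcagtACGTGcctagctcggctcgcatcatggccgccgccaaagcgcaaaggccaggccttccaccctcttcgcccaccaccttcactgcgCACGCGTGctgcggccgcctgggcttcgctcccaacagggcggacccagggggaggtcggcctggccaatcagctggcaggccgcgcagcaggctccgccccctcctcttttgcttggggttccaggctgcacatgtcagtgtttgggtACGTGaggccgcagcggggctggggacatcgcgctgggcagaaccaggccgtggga
Egln3, chr12:54203825-54204124, minus strand: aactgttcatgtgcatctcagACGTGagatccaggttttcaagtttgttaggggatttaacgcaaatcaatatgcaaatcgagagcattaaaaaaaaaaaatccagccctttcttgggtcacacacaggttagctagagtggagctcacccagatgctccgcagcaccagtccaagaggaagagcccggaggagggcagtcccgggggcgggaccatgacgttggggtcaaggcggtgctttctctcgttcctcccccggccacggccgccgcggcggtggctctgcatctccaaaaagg
Hkdc1, chr10:62422408-62422707, minus strand: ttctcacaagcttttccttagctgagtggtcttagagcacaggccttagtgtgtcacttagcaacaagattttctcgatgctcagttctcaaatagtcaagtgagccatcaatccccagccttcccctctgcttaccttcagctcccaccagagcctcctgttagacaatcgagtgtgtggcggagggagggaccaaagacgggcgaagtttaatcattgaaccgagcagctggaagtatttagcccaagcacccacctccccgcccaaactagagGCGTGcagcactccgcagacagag
Ldha, chr7:46845554-46845853, plus strand: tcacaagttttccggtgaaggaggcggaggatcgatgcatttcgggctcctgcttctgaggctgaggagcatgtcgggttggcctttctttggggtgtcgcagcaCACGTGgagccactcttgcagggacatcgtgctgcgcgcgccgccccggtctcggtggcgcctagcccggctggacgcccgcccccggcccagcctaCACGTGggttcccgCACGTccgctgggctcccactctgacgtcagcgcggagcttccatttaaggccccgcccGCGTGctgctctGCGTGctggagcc

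The Bnip3 window held 2 matches to ACGTG and 3 to GCGTG, and the Ankrd37 window held 2 of each. Ldha, shown because it held the most matches of the 10 genes and yet was called with neither pair of hairpins, had 5 to ACGTG and 2 to GCGTG. Egln3 had 1 match to ACGTG, at -229 relative to the start, and Hkdc1 had 1 match to GCGTG, 27 bases after the start. ACGTG stood in the windows of 7 of the 10 genes, against 19.6% of all 32851 RefSeq windows of the same 300 bases. GCGTG stood in 6 of the 10, against 32.4% of all windows. Vegfa was the gene whose window held neither motif, and 43.8% of all windows held at least 1 of them. These matches describe letters in a window and are not measured binding sites. The genes were picked for a part in glucose use or in the response to low oxygen, and most are known hypoxia targets.

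Expression is given as the log2 ratio of Cy5, the R1 cells, over Cy3, a common reference RNA pooled from several mouse cell lines. Between 48.9% and 76.1% of the spots of an array stood well above background in Cy5, and all 14 probes did so on all 24 arrays. Each fold change below is a difference of log2 ratios from a limma fit over all 28303 probes kept, with Benjamini-Hochberg adjusted p, and a change was called under 0.05. Where a gene had several probes, the brightest, probe 1, stands for it. The knockdowns showed in their own targets. Cdk8 ran from -1.54 to -1.07 in the Cdk8 hairpin arrays of day 13 and from -0.57 to -0.46 in shNTC. On day 8 it ran from -1.48 to -1.05 with shCdk8-1, from -0.87 to -0.73 with shCdk8-2 and from -0.57 to -0.41 in shNTC. The day 8 fold changes of Cdk8 were -0.78 with shCdk8-1 (adjusted p = 4.7e-07) and -0.31 with shCdk8-2 (adjusted p = 0.01). Med12 itself was higher with both on that day, at 0.22 (adjusted p = 0.043) and 0.34 (adjusted p = 0.003). Med12 ran from -2.12 to -1.76 in the Med12 hairpin arrays and from -1.11 to -0.88 in shNTC of day 13. All 10 ES cell markers measured were above the reference in every group, and none of 12 fibroblast and feeder markers was. Between 9 and 12 of those 12 still stood well above background in each group, so their RNA was not absent. On day 13 both Cdk8 hairpins lowered 3 of those ES markers, against 3.13% of all probes, and both Med12 hairpins lowered 5, against 4.96%. The Cdk8 count was 0 with slide as a block and 1 in Cy5 alone, and the Med12 count was 2 with normexp on all spots or the Feature Extraction log ratio. Of 7 trophectoderm markers, 3 were higher with both Cdk8 hairpins on day 13, against 3.29% of all probes. With both Med12 hairpins 3 were higher, against 5.36%, and 3 were lower with both Cdk8 hairpins on day 8, against 3.75%. Of the fibroblast markers, 3 were higher and 1 lower with both Med12 hairpins, against 5.36% and 4.96% of all probes. On day 8, 2 were lower with both Cdk8 hairpins, against 3.75%. The part of these markers in the results below was not tested. In bulk RNA, fewer cells of a type and less RNA per cell cannot be told apart.

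Arrays lay on 8 slides, each scanned once. No shCdk8-1 or shMed12-1 array shared a slide with shNTC of its own day, so their values with slide as a block rest on links through other groups. For shCdk8-2 and shMed12-2, differences between arrays of the same slide are given for some genes on day 13. Those of shCdk8-2 come from a single pair, with shNTC replicate 1. On day 8 a single pair of shCdk8-2 and shNTC shared a slide. For the genes called with shCdk8-2 on that day, it gave 0.46 for Bnip3, 0.36 for Egln3, -0.32 for Vegfa, -0.93 for Hkdc1 and -0.18 for Hk2.

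The 10 genes did not move as a block. On day 13, 4 of 10 were called with both Cdk8 hairpins in the same direction: Bnip3 was higher, and Hkdc1, Ankrd37 and Pdk1 were lower. Over all kept probes 6.42% were called that way. With both Med12 hairpins 3 of 10 were called, against 10.3% of all probes, and Hkdc1, Ankrd37 and Bnip3 were all lower. On day 8, 3 of 10 were called with both Cdk8 hairpins, against 7.57% of all probes: Bnip3 and Egln3 were higher and Vegfa was lower. The median of the 10 mean effects was 0.010 with Cdk8 hairpins on day 13, -0.16 with Med12 hairpins and -0.0044 with Cdk8 hairpins on day 8. The same medians over all probes were 0.0016, -0.0014 and -0.00050. With slide as a block the day 13 Cdk8 count was 2 of 10, since Ankrd37 and Pdk1 each lost a call with shCdk8-1, Pdk1 also with shCdk8-2. That count also fell to 2 without shNTC day 13 replicate 1, shCdk8-1 day 13 replicate 2 or shCdk8-1 day 13 replicate 3, in turn.

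**Figure D1:**
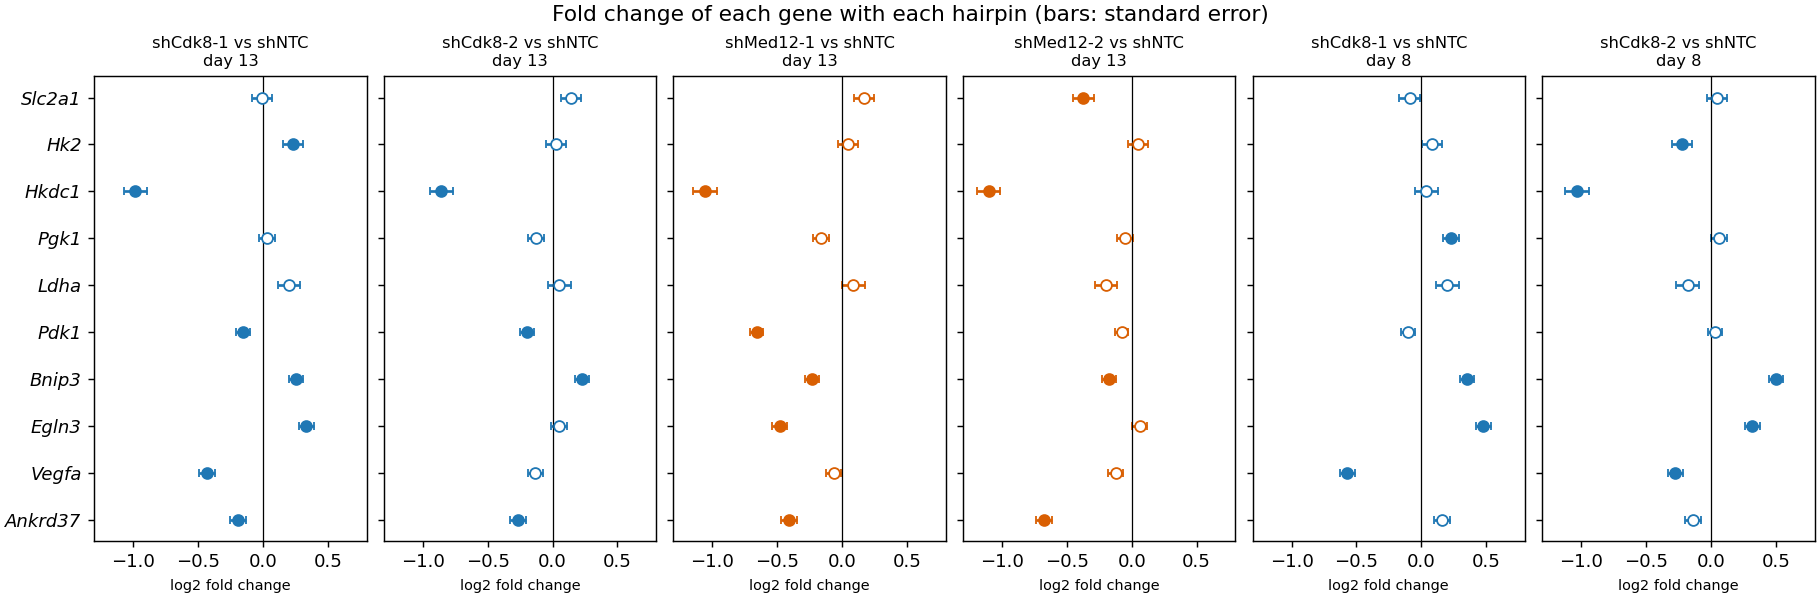
Log2 fold change (x axis) of the brightest probe of each of the 10 genes (rows) with each hairpin against shNTC of the same day, with bars for the standard error. Filled points passed an adjusted p of 0.05, blue marks Cdk8 hairpins and orange marks Med12 hairpins. Bnip3 lies right of 0 in all 4 Cdk8 panels and left of 0 in both Med12 panels.

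Bnip3, the mitophagy receptor, was the gene that the 2 knockdowns moved in opposite directions. On day 13 its log2 ratio was -3.18, -3.27 and -3.18 with shCdk8-1 and -3.27, -3.24 and -3.20 with shCdk8-2. It was -3.61, -3.74 and -3.75 with shMed12-1 and -3.56, -3.65 and -3.72 with shMed12-2. In shNTC cells of that day it was -3.51, -3.46 and -3.42. All 6 Cdk8 arrays were above all 3 shNTC arrays, and all 6 Med12 arrays were below them. The log2 fold changes were 0.26 with shCdk8-1 (SE 0.05, adjusted p = 0.0016) and 0.23 with shCdk8-2 (SE 0.05, adjusted p = 0.0047). They were -0.23 with shMed12-1 (SE 0.05, adjusted p = 0.0023) and -0.18 with shMed12-2 (SE 0.05, adjusted p = 0.02). These changes are small, at most 1.20-fold up with Cdk8 hairpins and 1.18-fold down with Med12 hairpins.

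Set directly against each other, Cdk8 and Med12 knockdown arrays differed in Bnip3 by 0.45 (SE 0.04, adjusted p = 9.7e-09). Without a shared control, 4 slides carried a Cdk8 and a Med12 array of day 13, and the Bnip3 difference on them was 0.54, 0.35, 0.56 and 0.48. The Cdk8 array was the higher on each of those slides. Blocked by slide, the Med12 fold changes were -0.15 (adjusted p = 0.32) and -0.16 (adjusted p = 0.09), which ended both calls. The shMed12-2 call was also lost without any 1 of 4 arrays, 2 of them shNTC, with adjusted p from 0.053 to 0.12. Between arrays of the same slide, shMed12-2 minus shNTC was -0.10 and -0.22, and shCdk8-2 minus shNTC was 0.32. With median centring in place of loess, Bnip3 was called with no hairpin on day 13. The Cdk8 hairpins then gave 0.17 (adjusted p = 0.54) and 0.16 (adjusted p = 0.62). The Med12 hairpins gave -0.32 (adjusted p = 0.097) and -0.31 (adjusted p = 0.11). In Cy5 alone shCdk8-1 was 0.18 (adjusted p = 0.051).

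On day 8 the rise of Bnip3 was larger. Its log2 ratio was -3.01, -2.97 and -2.94 with shCdk8-1 and -2.75, -2.86 and -2.87 with shCdk8-2, against -3.33, -3.30 and -3.36 in shNTC. The hairpin and shNTC arrays did not overlap. The log2 fold changes were 0.35 (SE 0.05, adjusted p = 5.6e-05) and 0.50 (SE 0.05, adjusted p = 8.7e-07), or 1.28-fold and 1.41-fold. The mean Cdk8 effect on day 13 minus that on day 8 was -0.18 (SE 0.07, adjusted p = 0.13) and was not called.

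**Figure D2:**
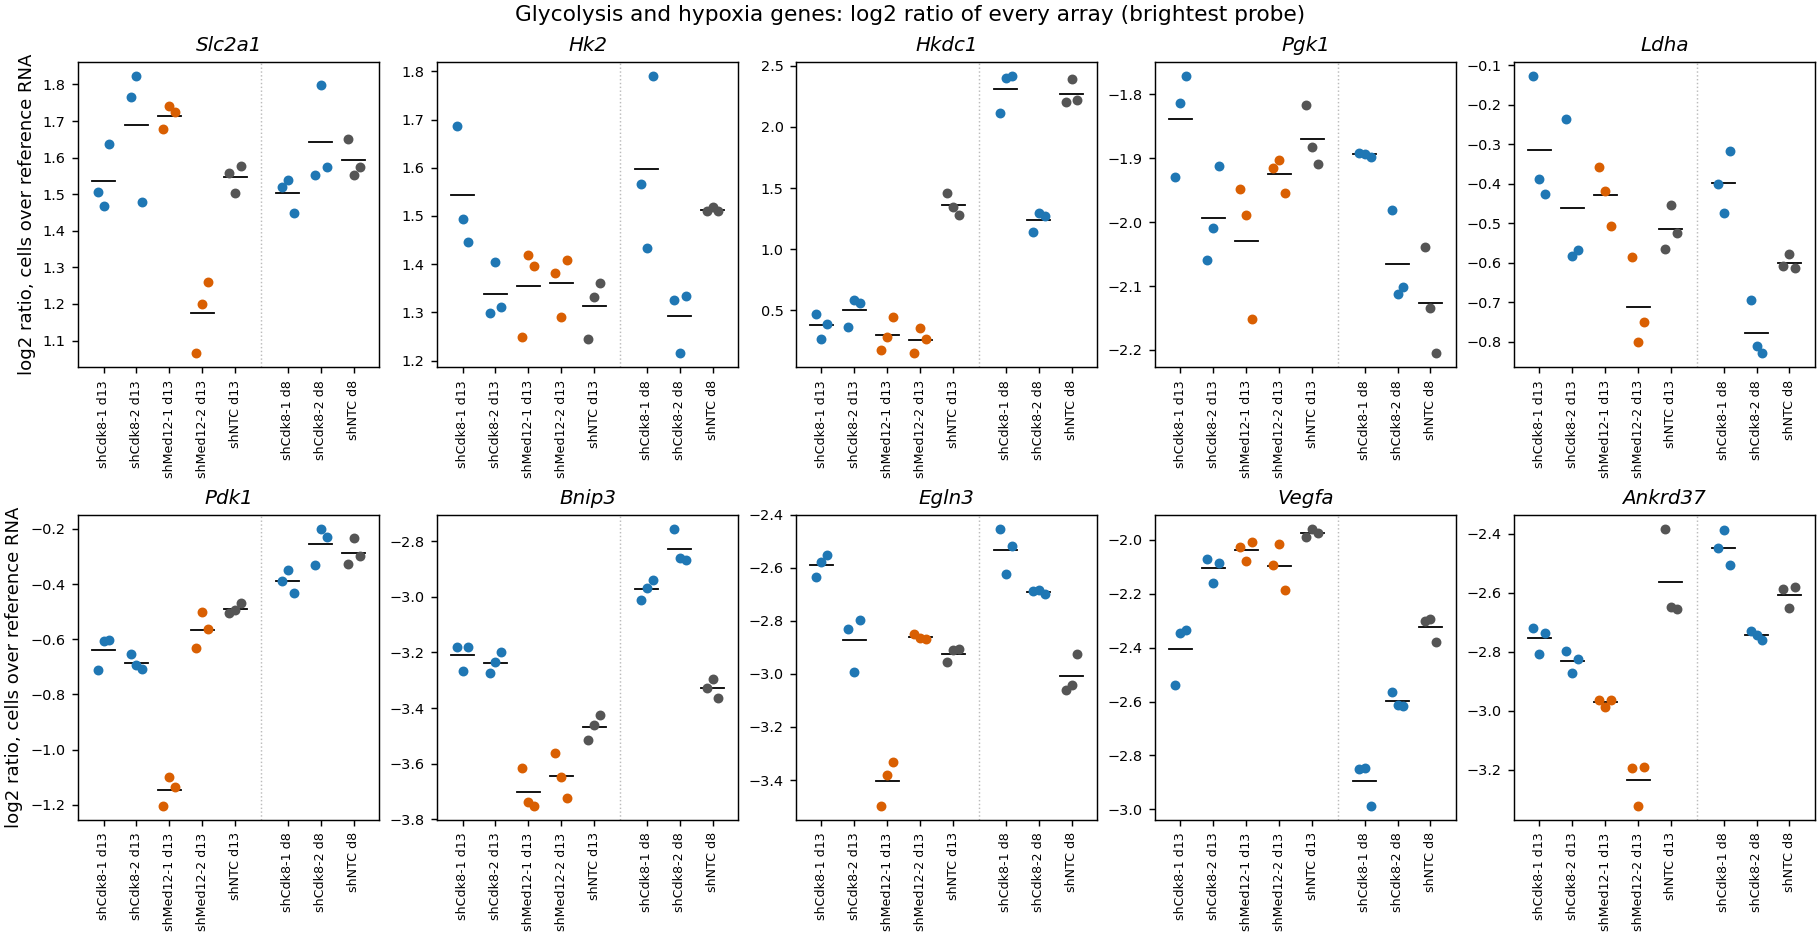
Log2 ratio of cells over reference RNA (y axis, a different range in each panel) on every array for the brightest probe of the 10 genes, with black lines for group means of 3 arrays. Blue points are Cdk8 hairpins, orange Med12 hairpins and grey shNTC, with day 13 left of the dotted line and day 8 right of it. Hkdc1 spans the widest range, from 0.15 to 2.42.

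Egln3, the HIF prolyl hydroxylase that is itself a HIF target, rose with both Cdk8 hairpins on day 8. Its log2 ratio was -2.45, -2.62 and -2.52 with shCdk8-1 and -2.69, -2.68 and -2.70 with shCdk8-2, against -3.06, -3.04 and -2.92 in shNTC. No hairpin array overlapped shNTC, and the log2 fold changes were 0.48 (SE 0.06, adjusted p = 3.7e-06) and 0.32 (SE 0.06, adjusted p = 0.00048). With normexp on all spots the shCdk8-2 value stayed at 0.32 but lost its call. Its adjusted p in limma was then 0.069 by saddle point and 0.063 by maximum likelihood. Median centring also ended it, at 0.33 (adjusted p = 0.11). On day 13 the hairpins parted. Egln3 was -2.63, -2.58 and -2.55 with shCdk8-1, -2.83, -2.99 and -2.80 with shCdk8-2, and -2.95, -2.91 and -2.90 in shNTC. The change was 0.33 with shCdk8-1 (SE 0.06, adjusted p = 0.00028), while shCdk8-2 overlapped shNTC at 0.05 (SE 0.06, adjusted p = 0.63). In the fit with a slide block the shCdk8-1 change was 0.29 (adjusted p = 0.064), which ended that call.

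The Med12 hairpins also disagreed on Egln3. It was -3.50, -3.38 and -3.33 with shMed12-1, below all other arrays of the series, and -2.85, -2.86 and -2.87 with shMed12-2. Against shNTC that was -0.48 (SE 0.06, adjusted p = 1.8e-06) and 0.06 (SE 0.06, adjusted p = 0.51). The difference between the hairpins themselves was -0.54 (SE 0.06, adjusted p = 3.3e-07).

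Vegfa, the angiogenic signal, went the other way from Bnip3 and Egln3 on day 8. Probe 1, the mean of 10 spots an array, read -2.85, -2.85 and -2.99 with shCdk8-1 and -2.57, -2.61 and -2.62 with shCdk8-2, against -2.30, -2.29 and -2.38 in shNTC. All hairpin arrays were below shNTC, with log2 fold changes of -0.57 (SE 0.06, adjusted p = 3.5e-07) and -0.27 (SE 0.06, adjusted p = 0.0019). On day 13 it was -2.54, -2.35 and -2.33 with shCdk8-1, -2.07, -2.16 and -2.09 with shCdk8-2, and -1.99, -1.96 and -1.97 in shNTC. The change was -0.43 with shCdk8-1 (SE 0.06, adjusted p = 1.6e-05) and was not called with shCdk8-2, at -0.13 (SE 0.06, adjusted p = 0.14). With both Med12 hairpins it lay between -2.19 and -2.01 and was not called, at -0.06 (adjusted p = 0.48) and -0.12 (adjusted p = 0.14).

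The Vegfa probes did not all give the same answer. Probe 3 was also lower with shCdk8-1, by a log2 fold change of -0.32 on day 13 (SE 0.08, adjusted p = 0.006) and -0.25 on day 8 (SE 0.08, adjusted p = 0.023). Probe 3 was not called with shCdk8-2 on either day. Probe 2 was called with no Cdk8 hairpin, and with shCdk8-2 on day 8 its estimate was above 0, where that of probe 1 was below. Probe 2 was called once against shNTC, lower with shMed12-1 at -0.23 (SE 0.08, adjusted p = 0.03). Where on the transcript each probe lies was not analysed here.

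**Figure D3:**
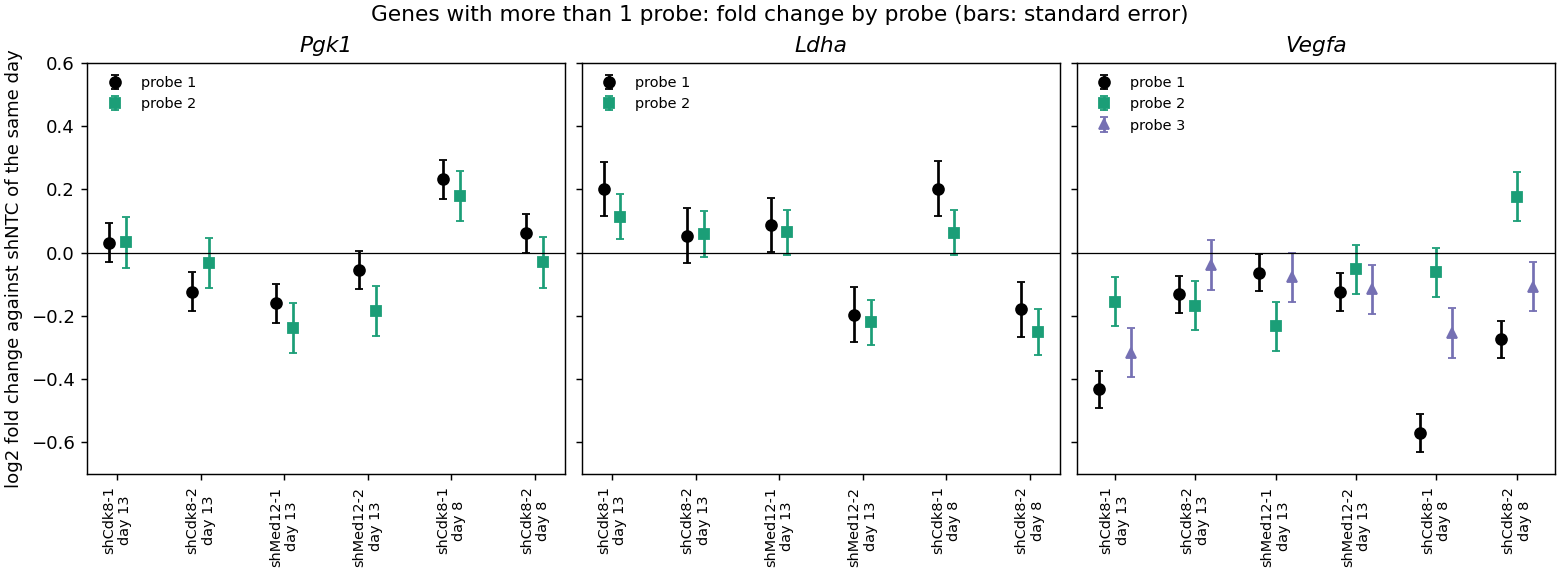
Log2 fold change against shNTC of the same day (y axis) for each probe of Pgk1, Ldha and Vegfa, by hairpin and day (x axis), with bars for the standard error. The probes of Pgk1 and of Ldha lie close together, while Vegfa probe 1 reaches -0.57 with shCdk8-1 on day 8 where probe 2 is at -0.06.

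Ankrd37, the ankyrin repeat HIF target, fell with all 4 hairpins on day 13, and furthest with Med12 hairpins. It was -2.72, -2.81 and -2.74 with shCdk8-1 and -2.80, -2.87 and -2.83 with shCdk8-2. With shMed12-1 it was -2.96, -2.99 and -2.96, and with shMed12-2 -3.19, -3.32 and -3.19, against -2.38, -2.65 and -2.66 in shNTC. All 12 hairpin arrays were below all shNTC arrays, and shNTC replicate 1 stood above the other two. The log2 fold changes were -0.19 with shCdk8-1 (SE 0.06, adjusted p = 0.034) and -0.27 with shCdk8-2 (SE 0.06, adjusted p = 0.0038). They were -0.41 with shMed12-1 (SE 0.06, adjusted p = 2.7e-05) and -0.67 with shMed12-2 (SE 0.06, adjusted p = 2.6e-08), the last a 1.59-fold fall. Cdk8 minus Med12 knockdown was 0.31 (SE 0.04, adjusted p = 1.2e-05), and every Cdk8 array was above every Med12 array.

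The Ankrd37 change with shCdk8-1 rests on shNTC replicate 1, without which it was -0.10 (adjusted p = 0.27), while shCdk8-2 then read -0.18 (adjusted p = 0.039). In the slide-blocked fit shCdk8-1 read -0.24 (adjusted p = 0.094). In Cy5 alone shNTC replicate 1 was the lowest of its group, at 9.93 against 10.21 and 10.39. There the Cdk8 hairpins were not called, at -0.14 (adjusted p = 0.54) and -0.20 (adjusted p = 0.41). Neither was shMed12-1, at -0.35 (adjusted p = 0.07), while shMed12-2 kept its call. Between arrays of the same slide, shCdk8-2 minus shNTC was -0.44, but the control of that pair was the same shNTC replicate 1. Its shCdk8-2 array, replicate 3, had the lowest share of spots well above background, 48.9%. For shMed12-2 minus shNTC, from pairs without shNTC replicate 1, the differences were -0.55 and -0.67. On day 8 Ankrd37 was -2.45, -2.39 and -2.51 with shCdk8-1 and -2.73, -2.74 and -2.76 with shCdk8-2, against -2.59, -2.65 and -2.58 in shNTC. The hairpins lay on opposite sides of shNTC, each without overlap, though neither was called, at 0.16 (adjusted p = 0.072) and -0.14 (adjusted p = 0.13). The difference between them was 0.30 (SE 0.06, adjusted p = 0.0013).

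Pdk1, the kinase that restrains pyruvate dehydrogenase, showed its main change with a single Med12 hairpin. It was -1.20, -1.10 and -1.14 with shMed12-1 and -0.63, -0.50 and -0.56 with shMed12-2, against -0.50, -0.49 and -0.47 in shNTC. The shMed12-1 arrays were below every other array of the series, while shMed12-2 overlapped shNTC. The log2 fold change was -0.66 with shMed12-1 (SE 0.05, adjusted p = 2.3e-09), a 1.58-fold fall, and -0.08 with shMed12-2 (SE 0.05, adjusted p = 0.33). The hairpins differed by -0.58 (SE 0.05, adjusted p = 2e-08). With Cdk8 hairpins on day 13 Pdk1 was -0.71, -0.61 and -0.60 and -0.65, -0.69 and -0.71, all below shNTC. Those changes were -0.15 with shCdk8-1 (SE 0.05, adjusted p = 0.047) and -0.20 with shCdk8-2 (SE 0.05, adjusted p = 0.011). The shCdk8-1 call was lost without any 1 of its 6 arrays, with adjusted p from 0.057 to 0.18. Neither was called with slide as a block, at -0.19 (adjusted p = 0.13) and -0.18 (adjusted p = 0.087), and shCdk8-2 minus shNTC on the same slide was -0.20. On day 8 neither Cdk8 hairpin was called for Pdk1, at -0.10 (adjusted p = 0.17) and 0.03 (adjusted p = 0.73).

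Hkdc1, a hexokinase domain protein related to Hk2, had by far the widest span of the 10 genes. Its group means ran over 2.05 log2 units, or 4.15-fold, and the next widest, Vegfa, over 0.92. On day 13 Hkdc1 was 0.47, 0.27 and 0.39 with shCdk8-1 and 0.36, 0.59 and 0.56 with shCdk8-2. It was 0.18, 0.28 and 0.45 with shMed12-1 and 0.15, 0.35 and 0.27 with shMed12-2, against 1.46, 1.34 and 1.28 in shNTC. All 12 hairpin arrays lay far below shNTC and neighbouring hairpin groups overlapped, though the shCdk8-2 arrays were all above the shMed12-2 arrays. The log2 fold changes were -0.98 and -0.86 with the Cdk8 hairpins (SE 0.09, adjusted p = 7.8e-08 and 8.2e-07) and -1.06 and -1.10 with the Med12 hairpins (SE 0.09, adjusted p = 8.3e-09 and 4.7e-09). Blocked by slide they were -0.76, -0.82, -0.81 and -1.06, all called. Between arrays of the same slide, shCdk8-2 minus shNTC was -0.89 and shMed12-2 minus shNTC was -1.19 and -0.93.

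On day 8 the Cdk8 hairpins disagreed on Hkdc1 by more than on any other of the 10 genes. It was 2.12, 2.40 and 2.42 with shCdk8-1 and 1.14, 1.30 and 1.28 with shCdk8-2, against 2.21, 2.39 and 2.22 in shNTC. shCdk8-1 overlapped shNTC, at 0.04 (SE 0.09, adjusted p = 0.82), while shCdk8-2 was -1.03 (SE 0.09, adjusted p = 4e-08), a 2.05-fold fall. The hairpins differed by 1.07 (SE 0.09, adjusted p = 1.9e-08). In shNTC cells Hkdc1 was lower on day 13 than on day 8, by a log2 difference of -0.91 (SE 0.09, adjusted p = 1.1e-07). In order of level, the 4 day 13 hairpin groups came lowest, then shCdk8-2 of day 8 and shNTC of day 13, which overlapped, then shNTC and shCdk8-1 of day 8, which also overlapped. Hkdc1 was dim in the reference, well above background in Cy3 on 23 of 24 arrays, and the offset of 50 narrows such ratios. In the log ratio of Feature Extraction the shCdk8-1 change of day 13 was -1.78 and the shMed12-1 change -1.83.

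The 3 genes whose 24 log2 ratios lay closest to those of Hkdc1, each centred on its own mean, were Hs3st1, Lama1 and Gata6. Their root mean square differences from Hkdc1 were 0.26, 0.27 and 0.28 log2 units over 24 arrays, out of 13725 genes. Lama1, a basement membrane laminin, and Gata6, a transcription factor of primitive endoderm, are both on the list of primitive endoderm markers. Gata6 differed from Hkdc1 in falling with shCdk8-1 on day 8, at -0.70 (SE 0.08, adjusted p = 1.1e-06). Of the 10 primitive endoderm markers, 6 fell with both Cdk8 hairpins on day 13, 6 with both Med12 hairpins and 7 with both Cdk8 hairpins on day 8, against 3.13%, 4.96% and 3.75% of all probes. Their mean log2 ratio an array ran from -1.41 to -1.15 over the 4 hairpin groups of day 13 and from -0.99 to -0.90 in shNTC of that day. On day 8 it ran from -0.44 to -0.41 with shCdk8-1, from -1.07 to -1.04 with shCdk8-2, and from -0.083 to -0.0017 in shNTC. Gata4 and Pdgfra were not well above background on every array with shCdk8-2 on day 13, and Pdgfra also with both Med12 hairpins. The part of these markers in the Hkdc1 result was not tested.

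**Figure D4:**
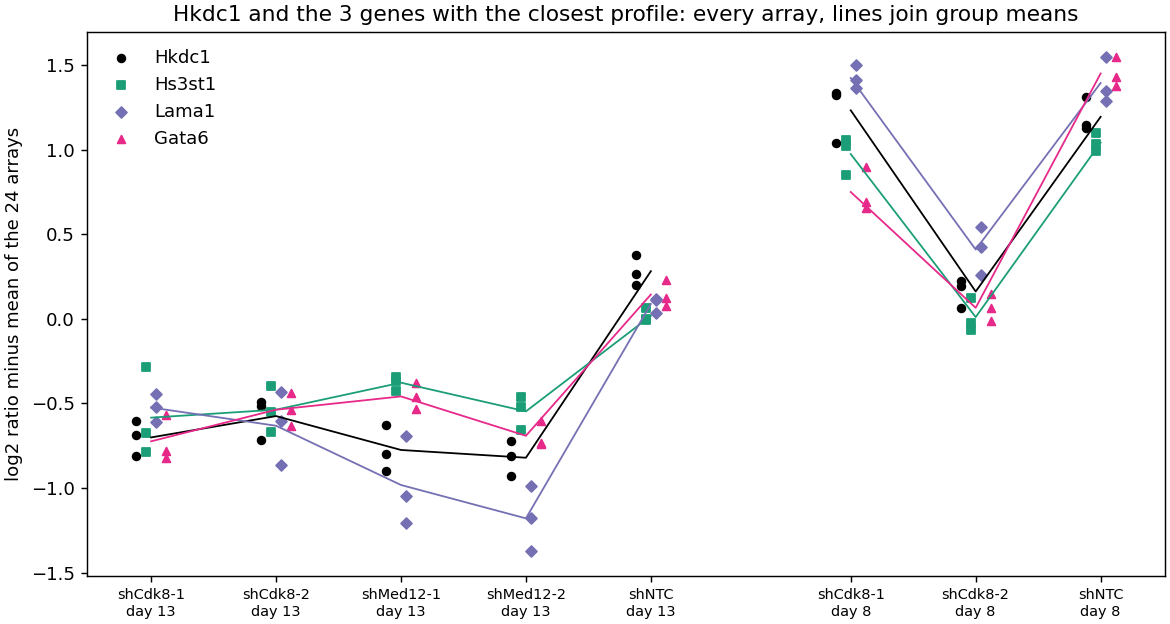
Log2 ratio minus the mean of the 24 arrays (y axis) for Hkdc1, Hs3st1, Lama1 and Gata6 in the 8 groups (x axis), with a point for every array and lines that join group means within a day. All 4 genes are lowest in the hairpin groups of day 13 and highest in shNTC of day 8 or shCdk8-1 of day 8.

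Slc2a1, Hk2, Pgk1 and Ldha were not called in the same direction with both hairpins of a pair at probe 1. Slc2a1, the widely used glucose transporter, was 1.07, 1.20 and 1.26 with shMed12-2, below all other arrays of the series, against 1.56, 1.50 and 1.58 in shNTC of day 13. That was -0.37 (SE 0.08, adjusted p = 0.0012), and the same-slide differences were -0.44 and -0.38. With shMed12-1 it was 1.68, 1.74 and 1.72, which was not called at 0.17 (adjusted p = 0.13). The Med12 hairpins differed by 0.54 (SE 0.08, adjusted p = 1.9e-05). No Cdk8 hairpin was called for Slc2a1 on either day, with fold changes between -0.090 and 0.14.

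Hk2, the hexokinase bound to mitochondria, passed with a different hairpin on each day. With shCdk8-1 on day 13 it was 1.69, 1.49 and 1.45, against 1.24, 1.33 and 1.36 in shNTC, a log2 fold change of 0.23 (SE 0.08, adjusted p = 0.041). With shCdk8-2 on day 8 it was 1.32, 1.22 and 1.33, against 1.51, 1.52 and 1.51 in shNTC, a change of -0.22 (SE 0.08, adjusted p = 0.045). Both calls are near the threshold. The first was lost without any 1 of 5 of its 6 arrays and the second without any 1 of its 6. Without shCdk8-1 day 13 replicate 1 the first was 0.16 (adjusted p = 0.21), and with slide as a block the second was -0.19 (adjusted p = 0.13).

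Pgk1, which makes ATP in lower glycolysis, stayed within 0.29 log2 units over all group means at probe 1, the mean of 10 spots. It was higher with shCdk8-1 on day 8, at -1.89, -1.89 and -1.90 against -2.04, -2.13 and -2.21 in shNTC. That change was 0.23 (SE 0.06, adjusted p = 0.0092), and it was 0.17 with slide as a block (adjusted p = 0.26). No other hairpin was called at probe 1. Probe 2 was called with shMed12-1, at -0.24 (SE 0.08, adjusted p = 0.031), where probe 1 gave -0.16 (adjusted p = 0.061).

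Ldha, the enzyme of lactate production, was not called against shNTC at probe 1 with any hairpin, with estimates between -0.20 and 0.20. Its hairpins did differ from each other. On day 8 probe 1 was -0.40, -0.47 and -0.32 with shCdk8-1 and -0.69, -0.81 and -0.83 with shCdk8-2, on either side of shNTC at -0.61, -0.58 and -0.61. The hairpin difference was 0.38 at probe 1 (SE 0.09, adjusted p = 0.0027) and 0.32 at probe 2 (SE 0.07, adjusted p = 0.0029). Between the Med12 hairpins it was 0.28 at probe 1 (SE 0.09, adjusted p = 0.018) and 0.28 at probe 2 (SE 0.07, adjusted p = 0.005). Probe 2 was also lower than shNTC with shCdk8-2 on day 8, at -0.25 (adjusted p = 0.016), and with shMed12-2, at -0.22 (adjusted p = 0.03).

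Hairpins against the same gene also gave different levels of these genes. On day 13, 5 of 10 differed between the Med12 hairpins (Pdk1, Egln3, Slc2a1, Ldha and Ankrd37), against 25.8% of all probes. Between the Cdk8 hairpins 2 of 10 differed on day 13 (Egln3 and Vegfa), against 16.3% of all probes. On day 8, 5 of 10 did (Hkdc1, Ldha, Hk2, Ankrd37 and Vegfa), against 22.1%. Vegfa is counted here by probe 1. On day 13 its means with shCdk8-1 and shCdk8-2 were -2.37 and -2.38 at probe 2, and -1.64 and -1.36 at probe 3. Pdk1 and Egln3 were lower with shMed12-1 than with shMed12-2, while Slc2a1, Ldha and Ankrd37 were higher. A slide block brought the Med12 count to 2 and the day 8 Cdk8 count to 3.

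Cdk8 and Med12 knockdown cells of day 13 were compared directly, since both had been set against the same 3 shNTC arrays. Of the 10 genes 7 differed, against 22.0% of all probes, 6 of them higher with Cdk8 hairpins. Bnip3, Egln3 and Ankrd37 had the widest gaps, at 0.45, 0.40 and 0.31. Pdk1 was 0.19 (SE 0.04, adjusted p = 0.0004), Ldha 0.18 (SE 0.06, adjusted p = 0.036) and Slc2a1 0.17 (SE 0.06, adjusted p = 0.033). Vegfa was the gene that was lower with Cdk8 hairpins, at -0.19 (SE 0.04, adjusted p = 0.0019), by probe 1. At Vegfa probe 2 the group means were -2.37 and -2.38 with the Cdk8 hairpins. They lay between those of the Med12 hairpins, -2.44 and -2.26. At probe 3 the means were -1.64 with shCdk8-1 and -1.36 with shCdk8-2, on either side of -1.40 and -1.44 with the Med12 hairpins. For Egln3, Pdk1, Slc2a1, Ldha and Ankrd37 these means join Med12 hairpins that differed from each other. For Egln3 and Vegfa they join Cdk8 hairpins that differed. Cdk8 and Med12 arrays overlapped in Egln3, Pdk1, Slc2a1, Ldha and Vegfa, and did not in Ankrd37. The Ldha difference was 0.064 in Cy5 alone (adjusted p = 0.57). In the slide-blocked fit 5 of 10 differed, without Ldha (adjusted p = 0.054) and Slc2a1 (adjusted p = 0.13).

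In shNTC cells, 4 of 10 genes differed between day 13 and day 8, against 23.5% of all probes. Vegfa was higher on day 13, at 0.35 (SE 0.06, adjusted p = 0.00012), and so was Pgk1, at 0.26 (SE 0.06, adjusted p = 0.0036). Hkdc1, described above, and Pdk1, at -0.20 (SE 0.05, adjusted p = 0.006), were lower on day 13. Between arrays of the same slide Vegfa was 0.34 and 0.32, Pgk1 0.16 and 0.23, Hkdc1 -0.86 and -1.11, and Pdk1 -0.17 and -0.24. The mean Cdk8 effect differed between day 13 and day 8 in Hkdc1 alone of the 10, at -0.42 (SE 0.11, adjusted p = 0.027), against 5.02% of all probes. That call was lost without shNTC day 8 replicate 1 or 3 or shNTC day 13 replicate 1 or 2, in turn, with values from -0.43 to -0.37. For shCdk8-1 alone 2 of 10 differed between the days, Hkdc1 and Ankrd37, against 1.53% of all probes. For shCdk8-2 alone 2 of 10 did, Bnip3 and Egln3, against 9.57%. All 4 differences were below 0, at -1.02, -0.35, -0.27 and -0.27.

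Other genes of the same pathways were counted by the same rule. Of 36 other hypoxia targets kept, both Cdk8 hairpins raised 7 and lowered 1 on day 13, both Med12 hairpins raised 5, and both Cdk8 hairpins raised 3 and lowered 4 on day 8. Over all probes 3.29% were higher and 3.13% lower with both Cdk8 hairpins on day 13, 5.36% and 4.96% with both Med12 hairpins, and 3.83% and 3.75% with both Cdk8 hairpins on day 8. Edn1, which encodes the vasoconstrictor endothelin, had mean log2 fold changes of 0.68 with Cdk8 and 1.01 with Med12 hairpins on day 13, and of -0.34 with Cdk8 hairpins on day 8. On day 13 it was 0.33 with shCdk8-1 and 1.03 with shCdk8-2. Its day 8 mean with slide as a block was -0.23 (adjusted p = 0.15). A single value for a pair of hairpins, here and below, is the mean of both. Cited2, an inhibitor of HIF coactivation, was 0.38 with Cdk8 and 0.51 with Med12 hairpins on day 13. Gbe1, the glycogen branching enzyme, was 0.55 with Cdk8 hairpins on day 13. P4ha2, a collagen prolyl hydroxylase, was -0.56 with Cdk8 hairpins on day 13 and -0.75 on day 8. Stc2, Mif and Tfrc, which encode stanniocalcin, a cytokine and the transferrin receptor, were 0.51, 0.29 and 0.20 on day 8. A slide block gave a day 8 count of 4 of 36, with 1 higher and 3 lower, and a day 13 Cdk8 count of 5, with 4 higher and 1 lower. The day 13 Cdk8 count was 5 in Cy5 alone, with 3 higher and 2 lower, and 2 with median centring, with 1 in each direction. The Med12 count was 9 in Cy5 alone, with 5 higher and 4 lower, and 2 with median centring, both higher.

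Of 26 other glycolysis enzymes and transporters kept, both Cdk8 hairpins raised 2 and lowered 2 on day 13, both Med12 hairpins raised 2 and lowered 4, and both Cdk8 hairpins raised 2 on day 8. The shares of all probes were 3.29% higher and 3.13% lower, 5.36% higher and 4.96% lower, and 3.83% higher, in that order. Pfkfb3, which makes the activator of phosphofructokinase, was 0.28 with Cdk8 and 0.58 with Med12 hairpins on day 13. This gene is on the list of hypoxia targets too and is counted in both lists. Eno3, the muscle enolase, was 0.56 and 0.49, with 0.29 for shCdk8-1 and 0.82 for shCdk8-2. Pfkp, the platelet phosphofructokinase, was -0.28 with Cdk8 and -0.65 with Med12 hairpins. Ldhb and Aldoc fell with Med12 hairpins, at -0.46 and -0.33. On day 8 Ldhb and Pfkl, the liver phosphofructokinase, rose with Cdk8 hairpins, at 0.46 and 0.27. Ldhb was then 0.22 with shCdk8-1 and 0.69 with shCdk8-2. Blocked by slide, no glycolysis gene was called with both Cdk8 hairpins on day 8, and 2 of 26 were on day 13.

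None of the 11 HIF factors and oxygen sensors kept was called with both hairpins of any pair by limma, and 1 passed with both at an unadjusted p of 0.05 in each comparison. The Feature Extraction log ratio called 1 of 11 in each, and limma with slide as a block called 1 with Cdk8 hairpins on day 8. In the main fit 6.42% of all probes were called with both Cdk8 hairpins on day 13. The share was 10.3% with both Med12 hairpins and 7.57% with both Cdk8 hairpins on day 8. For 11 genes a count of 0 or 1 lies near these shares and does not set the list apart. The share at an unadjusted p was not computed. Of 27 genes of pyruvate dehydrogenase and the citric acid cycle, both Cdk8 hairpins lowered 2 on day 13, both Med12 hairpins raised 2 and lowered 3, and both Cdk8 hairpins lowered 3 on day 8. The shares of all probes were 3.13% lower, 5.36% higher and 4.96% lower, and 3.75% lower, in that order. Pdk4, a relative of Pdk1, fell in all 3 comparisons, at -0.40, -0.56 and -0.28. Pdha1, the subunit of pyruvate dehydrogenase on which these kinases act, was 0.15 with Med12 hairpins and -0.26 with Cdk8 hairpins on day 8. Pdhx, a structural part of the same complex, was -0.28 with Cdk8 hairpins on day 8, although in Cy5 alone its shCdk8-1 value was 0.0018, against -0.18. Fh1, fumarase, was -0.16 on day 13. With Med12 hairpins Cs, citrate synthase, was 0.19, Pcx, pyruvate carboxylase, was -0.25 and Suclg1, of succinyl-CoA ligase, was -0.17. In the slide-blocked fit 1, 0 and 1 of 27 were called with both Med12 hairpins, both Cdk8 hairpins on day 13 and both Cdk8 hairpins on day 8.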

How the data were processed

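RNA of 24 samples of R1 cells was hybridised in Cy5 against a common reference in Cy3, with no dye swap, per the labels. The deposited scanner files, made with Agilent Feature Extraction 10.7 per the submitters' processing notes, hold intensity as the median over pixels, for spots and their surroundings, per the file headers and without normalization. They also give a log10 ratio of Cy5 over Cy3, background-subtracted and dye-normalized, per the file headers. In the value table deposited by the authors are log2 values, Cy5 over Cy3, which matched the scanner log ratio of each array in scale and direction, with column medians from -0.0049 to 0.121. These were used as alternatives. Marks (such as well above background or outlier) are 0 or 1 a spot, per the file headers.

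Intensities were corrected with normexp (offset 50, maximum likelihood) and normalized by loess within arrays in limma 3.58.1 under R 4.3.3. Control spots (1639 of 45018) and outlier-marked spots were left out. On shCdk8-1 day 8 replicate 1 and shMed12-1 day 13 replicate 3, a few spots lay far below a marked local background and compressed the ratios. Spots with a background mark were therefore left out of the normexp fit on every array, a step chosen after the arrays were seen; the fit on all spots is an alternative. Slopes against the other replicates of the group were 0.759 and 0.763 with all spots and 0.962 and 1.00 without the marked ones. Spots of a probe were averaged. A probe was kept (28303) if some group had it well above background (Cy5) on each of its arrays, with at least 2 values in every group. Accessions were named through a RefSeq gene table (GRCm38.p6), for 22951 probes; 18223 had no symbol there. Among genes of the lists, Gapdh, Ndrg1, Ndufa4l2, Pdp2, Nanog and Fgf4 were not matched.

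One limma model with a mean for each of 8 groups, leaving 16 residual degrees of freedom, gave all tests, two-sided. With slide as a block 9 remained. The members and gene lists were chosen with earlier results of these data known. Named were all members with all probes, Cdk8 and Med12, from each pathway list up to 3 highest and 3 lowest mean effects among genes called with both hairpins in 1 direction, and for a member whose group means span over 1 log2 unit the 3 genes closest in profile. Some genes that this rule picks are not reported here. The effects of single Cdk8 hairpins on day 13 minus day 8 were added later. The fit was tested on simulated data. The number of arrays, 3 a group, limits the precision. No saturated spots were found.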

Additional observations from a re-analysis of the deposited data

Results flagged for a closer look

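For 4 genes the effect of a Cdk8 hairpin differed between day 13 and day 8 by the test of that difference in the limma fit. The mean effect of both hairpins differed in Hkdc1, at -0.42 (adjusted p = 0.027), and for shCdk8-1 alone the Hkdc1 difference was -1.02 (SE 0.13, adjusted p = 4e-05). Over all probes 1.53% passed for shCdk8-1. For shCdk8-2 the Hkdc1 difference was 0.18 (adjusted p = 0.45), so the change between days stood with a single hairpin. The shCdk8-1 value was called without each array in turn. With all spots in the normexp fit it was -0.74 (adjusted p = 0.44), and without both arrays with a disturbed background it remained called.

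Ankrd37 differed for shCdk8-1, at -0.35 (SE 0.09, adjusted p = 0.042), with all its arrays above shNTC on day 8 and all below on day 13. Leaving out shNTC day 13 replicate 1 gave -0.26 (adjusted p = 0.12), and the call was lost without any 1 of 9 of its 12 arrays. For shCdk8-2, where 9.57% of all probes passed, Bnip3 was -0.27 (SE 0.08, adjusted p = 0.027) and Egln3 was -0.27 (SE 0.08, adjusted p = 0.045). With slide as a block neither was called, at -0.23 (adjusted p = 0.16) and -0.30 (adjusted p = 0.083). The Bnip3 call was lost without any 1 of 7 of its 12 arrays, and the Egln3 call without any 1 of 10.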

How the results depend on the processing

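Of 170 values of the 10 genes, 72 were called, and no called value changed sign under any setting run. With slide as a block 50 calls were kept, with median centring in place of loess 35, with normexp on all spots 56, with the Cy5 channel alone 57, with no filter on dim probes 63, and with the Feature Extraction log ratio 69. The count with both Cdk8 hairpins on day 13, 4 of 10, was 2 with normexp on all spots (by saddle point or, added after seeing the data, maximum likelihood), Cy5 alone, slide as a block, no filter or only the groups compared, and 1 with median centring. On day 8 it was 3, with 2 under either all-spot fit and 0 with median centring. The count for the Cdk8 effect on day 13 minus day 8, 1 of 10, was 0 with either all-spot fit or median centring, and 3 with the Feature Extraction log ratio or the authors' table. Between Cdk8 hairpins on day 8 the 5 of 10 were 9 with the Feature Extraction log ratio or the authors' table, 3 with slide as a block and 1 with median centring. On day 13 the 2 were 1 with either all-spot fit and 0 with median centring. The share of all probes called was computed for the main fit alone. Whether a count under another setting follows a shift in that share cannot be told here. Cdk8 against Med12, 7 of 10, was 3 with median centring. It was 5 with either all-spot fit, slide as a block, no filter or only the groups compared, and 8 in Cy5 alone or the authors' table. The Med12 hairpin count of 5 was 2 with slide as a block. Some smaller shifts of the counts are not listed. Leaving out each array in turn gave 3 to 3 and 2 to 4 (both Cdk8 hairpins, day 8 and day 13), 2 to 3 (both Med12 hairpins), 0 to 2 (Cdk8 effect between days), 6 to 7 (Cdk8 against Med12), 4 to 4 (shNTC between days), 5 to 7 and 2 to 3 (between Cdk8 hairpins, day 8 and day 13) and 4 to 5 (between Med12 hairpins). In Cy5 alone, Suclg1 on day 8 was 0.068 with shCdk8-1 and 0.061 as the mean of Cdk8 hairpins, against -0.16 and -0.14, and Pdhx with shCdk8-1 was 0.0018, against -0.18. The cause was not tested. Replicate numbers did not pair arrays: deviations of arrays of the same number correlated from -0.234 to 0.273 over 84 pairs. With the replicate number as a block 71 of the 72 calls were kept and the count between Cdk8 hairpins on day 8 was 6. Dim probes limit what the arrays show, as their ratios are narrowed by the offset.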
